A study of Sus scrofa with 6 samples.

Results

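The microRNAs described here, ssc-miR-204 and ssc-miR-1285, are 2 of the 236 rows with a pig miRNA name on a liver microarray. They were chosen by their signals on these same arrays, as rows with a lower signal on every Erhualian (EHL) array than on every Large White (LW) array that were not in the study's list of changed miRNAs. Of the 96 named rows with a value on all 6 arrays, 7 (7.29%) met the first condition and 4 of these were outside that list. The other two rows outside it were miR-199b* and miR-885-5p. Because the breed contrast chose both miRNAs, their differences between the breeds are given as a description, with no test.

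The livers came from newborn male piglets of purebred sows, with LW, a Western breed, as the control and EHL, a Chinese indigenous breed known for high adiposity, as the compared group. Each array was hybridized with RNA pooled from 2 littermates, giving 3 pools from 6 piglets in each breed, and a single dye, Cy5, was read. The animals came from neighbouring breeding farms, and how the breeds were divided between the farms is not given in the sources used here.

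A miRNA is a short RNA that guides the silencing complex to messenger RNAs that pair with its seed, the bases near its 5′ end, and so lowers their translation or stability. miR-204 is best known from the pigment epithelium of the eye, from the pancreatic islet and from mesenchymal precursors, in which it restrains RUNX2 and favours fat cells over bone cells. It also targets SIRT1, a deacetylase that takes part in the control of liver lipid and glucose metabolism. In the Sscrofa11.1 gene table of RefSeq, the gene MIR204 lies within TRPM3, which encodes a cation channel. miR-1285 has been studied far less. Its human counterpart overlaps Alu repeat sequence.

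The signal of miR-204, the deposited fluorescence intensity after background subtraction and LOWESS normalization, was 221, 268 and 347 on LW arrays 1, 2 and 3. On EHL arrays 1, 2 and 3 it was 220, 114 and 41. EHL array 1 thus stood 1 signal unit below the lowest LW array, whereas EHL array 3 stood far below all the others. The LW mean was 279 ± 63.7 and the EHL mean 125 ± 90.0 (SD, n = 3 arrays in each breed). The difference of mean log2 signals, EHL minus LW, was -1.44 with a standard error of 0.53 from the limma fit over all named rows tested, which corresponds to a signal 2.71-fold higher in LW. No other named row valued on all 6 arrays had so low a difference.

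The breeds differed in how widely miR-204 varied. Within LW the highest array had 1.57 times the signal of the lowest, and within EHL 5.37 times. On the log2 scale the SD was 0.33 in LW and 1.22 in EHL, where the median of the 96 rows was 0.27 and 0.36. The EHL spread of miR-204 was the 6th highest of the 96 rows and its LW spread the 43rd. In bulk liver RNA, fewer cells that make a miRNA and less of it in each cell cannot be told apart.

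**Figure D1:**
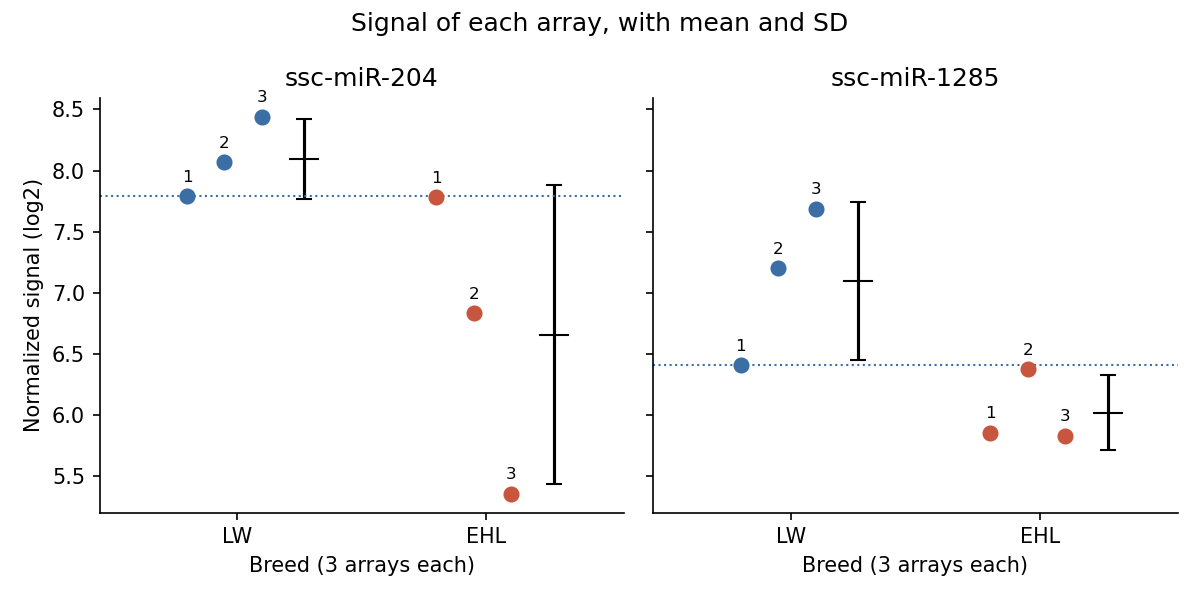
Normalized signal on the log2 scale for ssc-miR-204 (left) and ssc-miR-1285 (right), with each point an array labelled by its number, bars for the mean ± SD of the 3 arrays of a breed, and a dotted line at the lowest LW array. All EHL points lie under the dotted line, with EHL array 1 of miR-204 and EHL array 2 of miR-1285 touching it from below.

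Leaving out EHL array 3, the array at 41, took the difference of miR-204 from -1.44 to -0.79, so that LW was 1.73-fold higher in place of 2.71-fold. Leaving out EHL array 1, at 220, took it to -2.00, or 4.01-fold. The remaining leave-outs moved it much less, with values between -1.60 and -1.27. The SD in EHL was 0.67 without array 3 and 1.04 without array 1. The size of the miR-204 difference therefore rested on which EHL pools were counted, while its sign, fixed by the choice of rows without overlap, says nothing of its stability.

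The signal of miR-1285 was 85, 147 and 206 on LW arrays 1, 2 and 3, and 58, 83 and 57 on EHL arrays 1, 2 and 3. Here EHL array 2 stood 2 signal units below LW array 1, and the EHL arrays lay close together. The LW mean was 146 ± 60.5 and the EHL mean 66.0 ± 14.7 (SD, n = 3 arrays in each breed). The difference of mean log2 signals was -1.08 with a standard error of 0.36, a signal 2.11-fold higher in LW and the 3rd lowest difference of the 96 rows.

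For miR-1285 the wider spread was in LW, the reverse of miR-204. The log2 SD was 0.64 in LW, the 6th highest of the 96 rows, and 0.31 in EHL, the 66th. Leaving out LW array 1 took the difference from -1.08 to -1.42 and leaving out LW array 3 took it to -0.78, whereas the other 4 leave-outs gave values between -1.25 and -0.98. Without EHL array 2 the remaining EHL arrays, at 58 and 57, differed by an SD of 0.0177 on the log2 scale.

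The pair shared the array order within LW, with array 1 lowest and array 3 highest, and EHL array 3 was the lowest EHL array for both, although by only 1 signal unit for miR-1285. Of the 96 rows, 18 had LW array 1 as the lowest LW array and EHL array 3 as the lowest EHL array. Within EHL the miRNAs otherwise parted, since miR-204 was highest on array 1 and miR-1285 on array 2. The log2 ratio of the miR-204 signal to the miR-1285 signal was taken on each array. Multiplying all signals of an array by a factor leaves it unchanged, but a normalization that depends on the signal can change it. This ratio was 1.38, 0.87 and 0.75 on LW arrays 1, 2 and 3 and 1.92, 0.46 and -0.48 on EHL arrays 1, 2 and 3. Its mean was 0.999 ± 0.33 for LW and 0.64 ± 1.21 for EHL (SD, n = 3 arrays in each breed), and the EHL values reached above and below those of LW, so the miRNAs did not keep a fixed proportion across the EHL pools.

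How far the breeds lay apart can be read from the margin, the lowest LW log2 signal minus the highest EHL log2 signal. It was 0.00654 for miR-204 and 0.0344 for miR-1285, and miR-199b*, at 0.0330, lay between them. These were the 3 smallest of the 7 margins above 0. Just outside the limit were miR-92b-3p, at -0.0116, and miR-199a-3p, at -0.0805. The 3 rows that the study's array list also holds, miR-15b, miR-221 and miR-27a, had margins between 0.10 and 0.42 with smaller differences, between -0.85 and -0.43. In signal units, miR-199b* was at 963, 1185 and 928 in LW and 735, 907 and 477 in EHL. The row miR-885-5p was at 46, 43 and 69 in LW and 40, 30 and 26 in EHL, and its margin was 0.10.

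**Figure D2:**
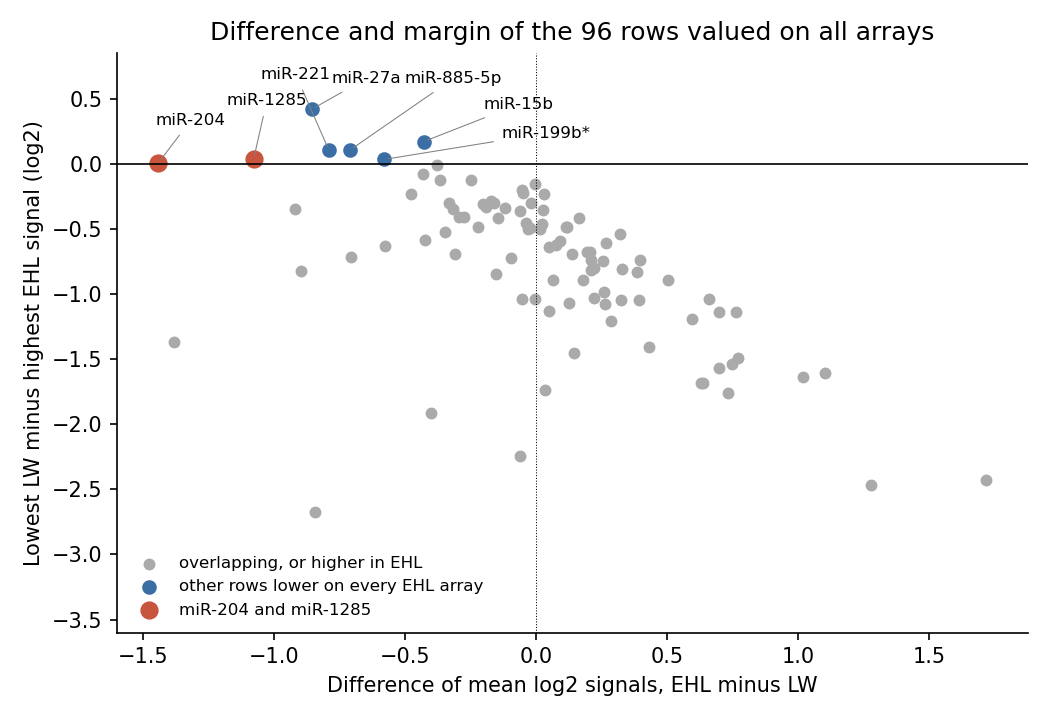
Each point is a named row valued on all 6 arrays, with the difference of mean log2 signals (EHL minus LW) on the horizontal axis and the lowest LW minus the highest EHL log2 signal on the vertical axis. The 7 labelled points above 0 are lower on every EHL array, and miR-204 and miR-1285 (red) combine the most negative differences of these 7, -1.44 and -1.08, with margins of 0.00654 and 0.0344.

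With margins this small, the condition that chose the miRNAs depended on the scaling between arrays. With arrays centred on their median over the 96 rows, EHL array 1 passed LW array 1 for miR-204 (margin -0.0616), and miR-1285 kept a margin of 0.000683. Quantile normalization left miR-204 with a tie (margin 0) and miR-1285 with 0.13. When each array was centred on the hepatocyte miRNAs miR-122, miR-192 and miR-148a, a setting first applied to the margin after the data had been seen, miR-204 had a margin of 0.49 and miR-1285 overlapped (margin -0.29). The differences of the means moved little under these scalings, from -1.48 to -1.43 for miR-204 and from -1.16 to -1.08 for miR-1285. Centring each array on the 45 rows with an LRS label and a value on all 6 arrays, whose targets are not given in the sources used here, shifted every row valued on all 6 arrays by 0.44 towards EHL. It gave differences of -1.005 for miR-204 and -0.64 for miR-1285, with margins of -0.32 and 0.15, so that miR-204 overlapped.

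Across the whole array, limma called 0 of 109 named rows lower in EHL (0%) and 1 higher (0.917%) at an adjusted p under 0.15, the threshold of the study. At an unadjusted p under 0.05 there were 5 lower and 8 higher. The SAM statistic, which the study used, called 0 lower and 8 higher when recomputed. The study's own SAM list held 3 rows as lower, miR-15b, miR-221 and miR-27a. By the study's account, only miR-15b of these was borne out by RT-qPCR and only miR-221 by sequencing. In the recomputed SAM each of these had a false discovery rate of 0.2466, above the threshold, so they were not called here. An equal-variance two-sample test called 0 in either direction after adjustment, with 3 lower and 6 higher at an unadjusted p under 0.05. Neither miR-204 nor miR-1285 was among the rows called by limma, SAM or the two-sample test. Since the contrast had chosen them, nothing further is read from these calls.

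The rows most like each miRNA were found from the root mean square difference between log2 profiles over the 6 arrays, each centred on its own mean. For miR-204 these were let-7f (0.44), miR-215 (0.49), miR-27a (0.62), miR-885-5p (0.66) and miR-345-3p (0.67), where the median over the other 95 rows was 1.08. The signal of let-7f was 374, 645 and 811 in LW and 438, 476 and 139 in EHL. That of miR-215, a relative of the hepatocyte miRNA miR-192, was 123, 366 and 480 in LW and 317, 104 and 37 in EHL. Both had their lowest signal of the 6 arrays on EHL array 3, as miR-204 did, but both overlapped between the breeds.

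For miR-1285 the most similar rows were miR-574 (0.37), miR-885-5p (0.42), let-7c (0.43), miR-27a (0.44) and let-7a (0.45), against a median of 0.80. The signal of miR-574 was 283, 491 and 644 in LW and 174, 500 and 159 in EHL, so that EHL array 2 was high in it as in miR-1285. The rows miR-885-5p and miR-27a were among the 5 most similar to each miRNA. The profiles of miR-204 and miR-1285 differed from each other by 0.75, which placed miR-1285 9th of 95 rows for miR-204 and miR-204 38th of 95 for miR-1285. The breed difference and the array pattern both enter this measure.

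**Figure D3:**
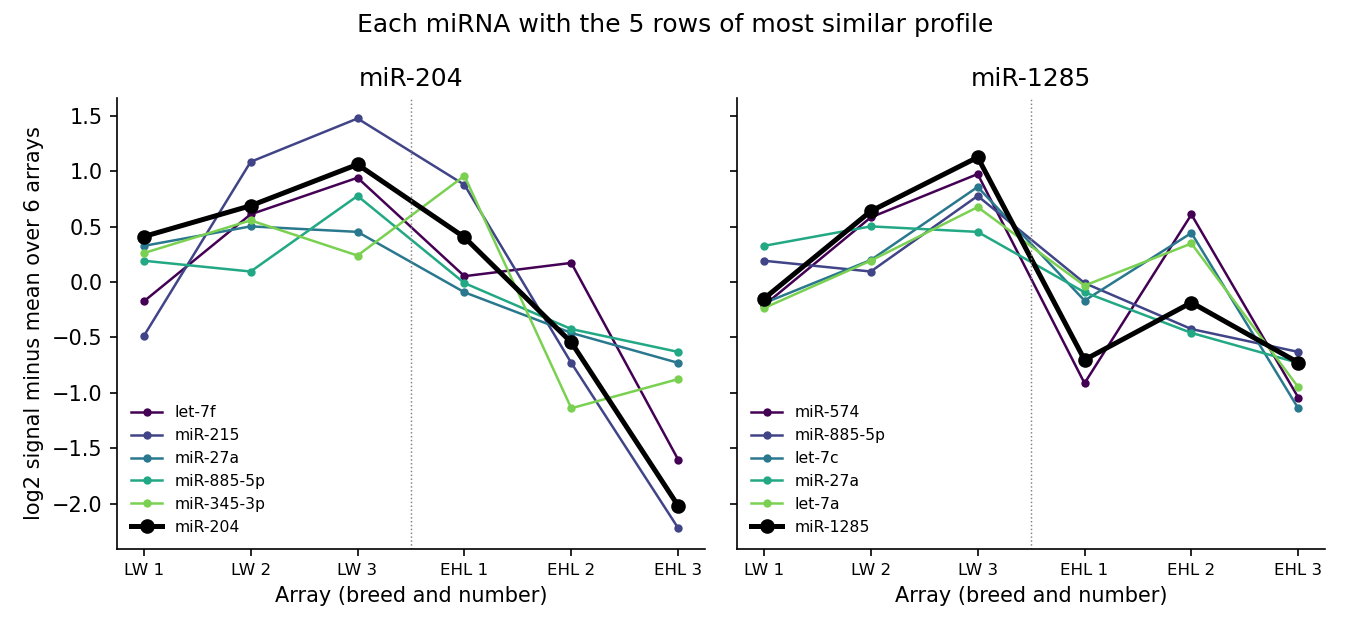
Log2 signal on each array minus the row's mean over the 6 arrays, for miR-204 (left, black) and miR-1285 (right, black) with the 5 rows of smallest root mean square difference from each. Lines only join the points of a row, since arrays of a breed have no order. The rows nearest to miR-204, let-7f and miR-215, drop with it on EHL array 3, and miR-574, nearest to miR-1285, is high on EHL array 2.

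Rows named for other miRNAs known to target SIRT1, as miR-204 does, showed no call in either direction. The list names miR-199a and miR-22 without an arm, so rows with the bare name or an arm written as in miR-199a-3p entered. The star-named row miR-199a*, with a difference of -0.20 (standard error 0.27), did not enter. Whether miR-199a-3p is the arm that targets SIRT1 was not examined. Of the 7 rows of this list, 2 were blank on all arrays and 4 could be tested, with differences of -0.43 (standard error 0.27) for miR-199a-3p, -0.33 (0.28) for miR-22-3p, -0.15 (0.38) for miR-181a and -0.0220 (0.28) for miR-199a. The 4 differences lay below 0 with a median of -0.24, where the median of all 109 rows tested was 0.0247, but centring on the LRS rows took all 4 above 0, with a median of 0.19 against 0.46 for all rows. Each was within 2 standard errors of 0 as deposited, and limma called 0 of the 4, as it called 0 of all 109 lower. None of the 4 was lower or higher on every EHL array, where 7.29% and 11.5% of the 96 rows were.

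Among miRNAs known to act in the differentiation of fat cells, 14 of 15 rows could be tested and limma called 0 in either direction. Their median difference was -0.0357, where that of all rows tested was 0.0247, and 8 of the 14 lay below 0. With quantile normalization the median was 0.11 over 12 rows, against 0.0486 for all rows. That setting left out miR-30a-3p and miR-130a, both below 0 as deposited, so the change of sign cannot be put down to the scaling. Centring on the LRS rows gave 0.40 over the 14 rows, against 0.46 for all rows. Only miR-27a, which restrains fat cell differentiation, was lower on every EHL array, while miR-143-3p, miR-130b and miR-378 were higher on every EHL array, where 11.5% of the 96 rows were. Centring on the hepatocyte miRNAs made these 3 overlap, and centring on the LRS rows made miR-27a overlap. miR-378, encoded in an intron of PPARGC1B, had a difference of 1.02 (standard error 0.32), and miR-21 had -0.84 (0.97), with signals of 37, 347 and 249 in LW and 236, 107 and 22 in EHL. Like miR-204, miR-21 was lowest on LW array 1 within LW and on EHL array 3 within EHL.

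The liver label was matched by miR-122, the miRNA typical of hepatocytes, with signals between 18287 and 28071. The summed signal of the hepatocyte list ranged from 24963 to 33001 in LW and from 24137 to 28497 in EHL, most of it from miR-122. A further miRNA of that list, miR-194, was blank on all 6 arrays. The pancreatic miRNAs miR-216, miR-217 and miR-7, of interest because miR-204 is also an islet miRNA, were blank on all 6 arrays. The remaining entry of the pancreatic list, miR-375, had no row of its name. The study detected both miR-375 and miR-216 in pooled livers by sequencing, so a blank or missing row here does not mean absence. The erythroid sum of miR-451 and miR-486 ranged from 124 to 249 in LW and from 78 to 410 in EHL, with the highest value on EHL array 1, the EHL array on which miR-204 was highest too, and its part in the spread of miR-204 was not tested. The sums of the lists for endothelium, for smooth muscle and for stellate cells overlapped between the breeds. Within the smooth muscle list, however, miR-143-3p was higher on every EHL array, as 11.5% of the 96 rows were. The rows miR-199a* and miR-199b* did not enter the stellate list, and miR-199b* was lower on every EHL array. On the arrays, between 101 and 134 named rows had a value, and the lowest value lay between 10 and 16, so that the lowest signals of miR-204 and miR-1285, 41 and 57, were above it. The number of arrays limits the precision.

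The ratio of mean linear signals gave -1.16 for miR-204 and -1.15 for miR-1285, so that the miRNAs differed less from each other than with averages of log2 signals, in which the array at 41 weighs more. An offset of 32 before the log2 conversion gave -1.14 and -0.81.

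**Figure D4:**
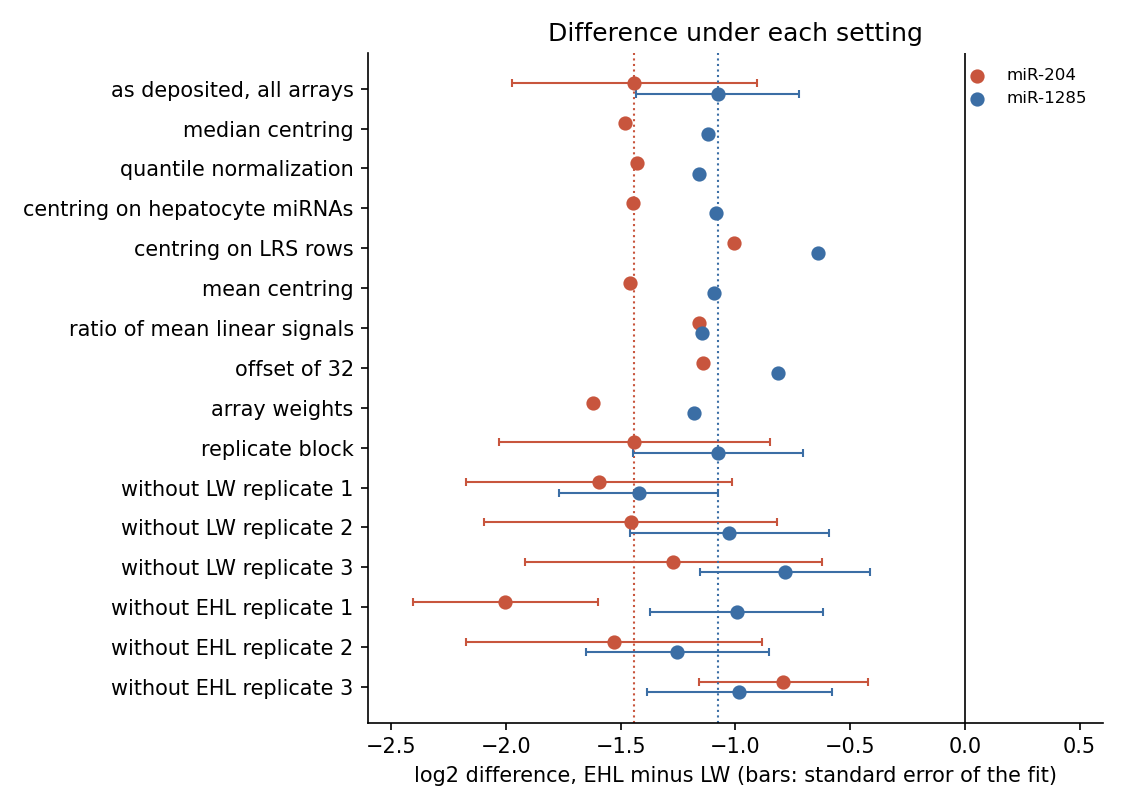
Difference of log2 signals (EHL minus LW) for miR-204 (red) and miR-1285 (blue) under each setting, with the standard error of the limma fit as a bar where one was computed and dotted lines at the values as deposited. All points lie below 0, and those of miR-204 range from -2.00, with EHL array 1 left out, to -0.79, with EHL array 3 left out.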

How the data were processed

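Liver RNA of newborn piglets was measured on 6 LC Sciences pig miRNA arrays, from 5 µg of total RNA of each pool, with probes after miRBase release 16. The authors subtracted the background, normalized by LOWESS and deposited the intensity of every row as a whole number, not on a log scale, leaving some cells blank. The authors put undetected miRNAs down to weak fluorescence, and the exact rule for leaving a cell blank is not given in the sources used here. Arrays were grouped by breed from their titles. After log2 conversion, limma 3.58.1 (R 4.3.3, lmFit and eBayes with a term for breed alone) was fitted to the 109 named rows valued on 2 or more arrays per breed, and p-values were adjusted by Benjamini-Hochberg. The 100 LRS rows were left out of the test. SAM was recomputed with 20 relabellings and the 5th percentile of the standard errors as its constant, and was tested with limma on simulated data. Python 3.11.15, numpy 2.4.6, pandas 2.3.3 and matplotlib 3.10.9 did the rest.

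The members, lists and tests were chosen with earlier results of these data known. Rows named beside the members were those without overlap and lower in EHL, those nearest to that limit, the 5 most similar to each member, and the listed miRNAs. The result of 1 listed group of miRNAs is not reported here. Sharing a seed was not analysed here. The array replicates are separate litters. Alternatives were other scalings, averages, offsets, weights, filters, a replicate block and leaving out each array. No row was matched by anything but its name, with or without an arm.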

Additional observations from a re-analysis of the deposited data

How the results depend on the processing

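Under the settings run, both differences stayed below 0, which their choice favours, and moved by less than the pooled SD of their miRNA. They ranged from -2.00 to -0.79 for miR-204 and from -1.42 to -0.64 for miR-1285, and ranks within the array gave the same sign. The counts over all named rows moved more. Rows called lower in EHL numbered 0, and 1 with quantile normalization, 7 with array weights and 0 to 9 with each array left out. Rows called higher numbered 1, and 8 with SAM, 15 with array weights, 0 with the two-sample test and 0 to 15 with each array left out. EHL array 1 decided the upper ends, since without it limma called 9 lower and 15 higher, and it had the lowest weight, 0.455. Without LW array 3 or EHL array 2, limma called 0 in either direction, with 5 and 10 at an unadjusted p under 0.05. Rows lower on every EHL array numbered 7. They numbered 4 with centring on the hepatocyte miRNAs and 1 with centring on the LRS rows, both added after the data had been seen. Leaving out an array, which can only keep or add such rows, gave 7 to 15. The cause was not tested beyond the smaller sets of arrays.

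The replicate block left the differences at -1.44 and -1.08 and gave 0 higher and 0 lower, with 8 at an unadjusted p under 0.05. Same-numbered arrays did not deviate in the same direction (correlations of -0.50, -0.0115 and -0.66 over the 96 rows for arrays 1, 2 and 3). Those numbered 1 and 3 tended to deviate in opposite directions, for which the cause was not tested. No positive correlation, the sign of pairing looked for, was seen. With 3 arrays a breed, the spread of each miRNA is itself poorly known.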
